A study of Mus musculus with 57 samples.

Results

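The interstitial response to ischemia was set against the response of 3 other kidney cell populations, gene by gene, to ask which changes after injury belonged to interstitial cells and which only looked so because other cells moved the opposite way. The measure was a difference of differences on log2 intensities: ischemia-reperfusion injury (IRI) minus sham in interstitial arrays, minus the mean of the same difference in nephron, endothelial and myeloid arrays. All 19192 genes tested entered it, from 24 of the 57 arrays of the series, 6 of them interstitial.

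Every array held RNA bound to ribosomes that carry a green fluorescent tag on the ribosomal protein L10a, taken from whole kidney by anti-GFP beads (translating ribosome affinity purification, TRAP). In all 4 lines the tag is an eGFPL10a cassette under the CAGGS promoter at Rosa26, opened by Cre and kept by all descendants of the cell that made Cre. Interstitial arrays came from foxd1-CRE mice, nephron arrays from six2-CRE mice, endothelial arrays from cdh5-CRE mice and myeloid arrays (macrophage/monocyte in the labels) from lyz2-CRE mice. Each line had 3 IRI arrays, 24 h after 28 min of clamping of both renal pedicles, and 3 sham arrays from mice operated on without clamping. All were male mice of a mixed C57BL/6 and 129 background. Interstitial and endothelial mice were 6 weeks old, nephron mice 8 weeks, myeloid IRI mice 9.5 weeks and myeloid sham mice 7 weeks, so age and injury cannot be told apart in the myeloid term. Wild-type kidneys without any tag, C57BL/6 by the labels, passed through the same purification (4 IRI and 2 sham arrays, 8 weeks) and serve as a background control. Kidneys of each line without surgery (3 arrays each) served as an alternative control, from mice of 6 weeks, or 7 weeks in the myeloid line. Age thus differs between IRI and this control in both the nephron and the myeloid term. The arrays are named as biological replicates with no animal given for each, so p-values measure the spread between these arrays, and their number limits the precision of every value.

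Foxd1 is made by stromal progenitors of the developing kidney. Their descendants are the fibroblasts and pericytes between the tubules, the mesangial cells of the glomerulus, vascular smooth muscle and the renin-producing cells. These cells lay down matrix, hold the capillaries, regulate blood flow, and include the cells that make erythropoietin when oxygen falls. After injury, fibroblasts and pericytes are known as a source of cytokines and chemokines and as the precursors of scar-forming myofibroblasts.

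The markers bore out the label. All 10 interstitial markers (Pdgfra, Pdgfrb, Dcn, Lum, Col1a1, Tcf21, Penk, Cspg4, Rgs5 and Notch3) were higher in interstitial sham arrays than in the sham arrays of each other line, as were 5 of 5 measured markers of mesangial and smooth muscle cells. Penk exceeded the mean of the other lines by 4.42 on the log2 scale, and Tcf21 by 3.81. Other cells were present too. All 4 adipocyte markers were likewise highest in interstitial sham arrays, where they summed to 1763 to 3749. Their sum was 5785 to 15116 in interstitial arrays without surgery. Of the 5 nephron markers, 2 were highest in interstitial sham arrays. The summed intensity of 5 nephron markers was 28049 to 30965 in interstitial sham arrays, against 25600 to 27724 in nephron sham arrays. The 10 interstitial markers summed to 16182 to 22659 in interstitial arrays after IRI and 22064 to 27231 after sham. Untagged wild-type arrays carried much of the same signal, 7991 to 15440 after IRI and 14752 to 15199 after sham, above the 2195 to 4039 of the other 3 lines. Background arrays from mice with the eGFPL10a cassette but without Cre (4 IRI and 2 sham arrays) gave 4002 to 4998 after IRI and 4369 to 4504 after sham. Why the 2 backgrounds differ was not tested. The interstitial response was therefore also compared with the wild-type response, although the wild-type mice were older by the labels. No marker list was at 0 in any array, since intensities have no true zero here.

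Of 19192 genes, 4936 (25.7%) passed the test of the difference at an adjusted p under 0.05 (limma, Benjamini-Hochberg over all genes tested). They split evenly: 2472 (12.9%) were higher in the interstitial response and 2464 (12.8%) lower. The interstitial response itself was called for 9299 genes (48.5%) and the mean response of the other lines for 10231 (53.3%). Against single lines, the interstitial response differed from the nephron response for 4510 genes (23.5%), from the endothelial response for 6126 (31.9%) and from the myeloid response for 6029 (31.4%). These 3 pairwise comparisons share the 6 interstitial arrays. The interstitial response differed from the wild-type response for 3759 genes (19.6%). The median difference over all genes was 0.043. With kidneys without surgery in place of sham, 2047 genes were higher and 2638 lower, of which 1062 and 1202 were among those called against sham.

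Opposite moves elsewhere accounted for part of the called genes, and each gene was sorted by which of its terms passed. Among the 2472 higher genes, 765 (30.9%) rose in interstitial arrays while the mean of the other lines was not called, and 770 (31.1%) rose in both but more in interstitial arrays. A further 186 (7.52%) rose in interstitial arrays and fell on average elsewhere. In 602 (24.4%) the interstitial response was not called and the other lines fell. In 105 (4.25%) both fell, the other lines more. The lower genes divided in the same way: 652 (26.5%) fell in interstitial arrays while the mean of the other lines was not called, 979 (39.7%) fell in both but more in interstitial arrays, and 197 (8%) fell against a rise elsewhere. Another 511 (20.7%) were lower with a rise in the other lines and no call in interstitial arrays. In 109 (4.42%) both rose, the other lines more. Neither term was called for 44 higher and 16 lower genes. A mean without a call did not mean that no line moved: at least 1 other line was called the opposite way for 281 of the 765 higher and 282 of the 652 lower genes.

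**Figure D1:**
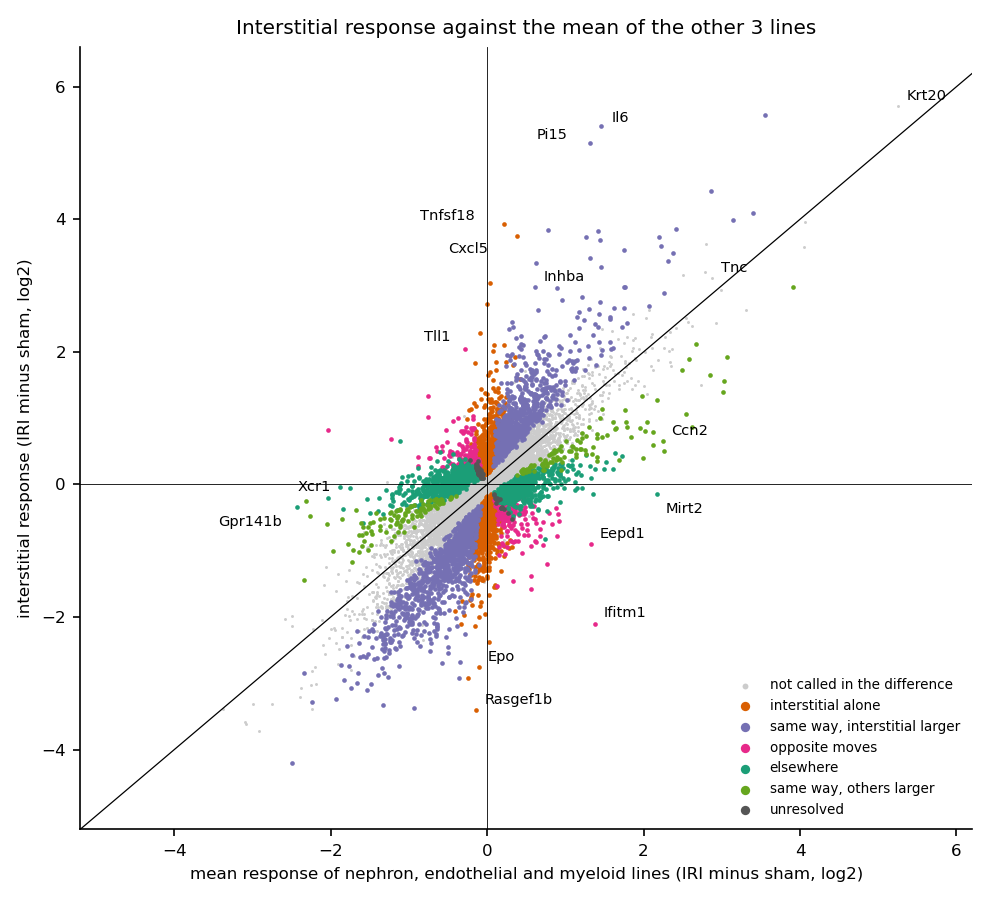
Interstitial response (y axis) against the mean response of the nephron, endothelial and myeloid lines (x axis), both as IRI minus sham on the log2 scale, for 19192 genes. Coloured points are the 4936 genes called in the difference, by class, and the diagonal marks equal responses: Il6 and Pi15 lie far above it with a smaller rise elsewhere, and Gpr141b and Xcr1 lie above it because the other lines fell.

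**Figure D2:**
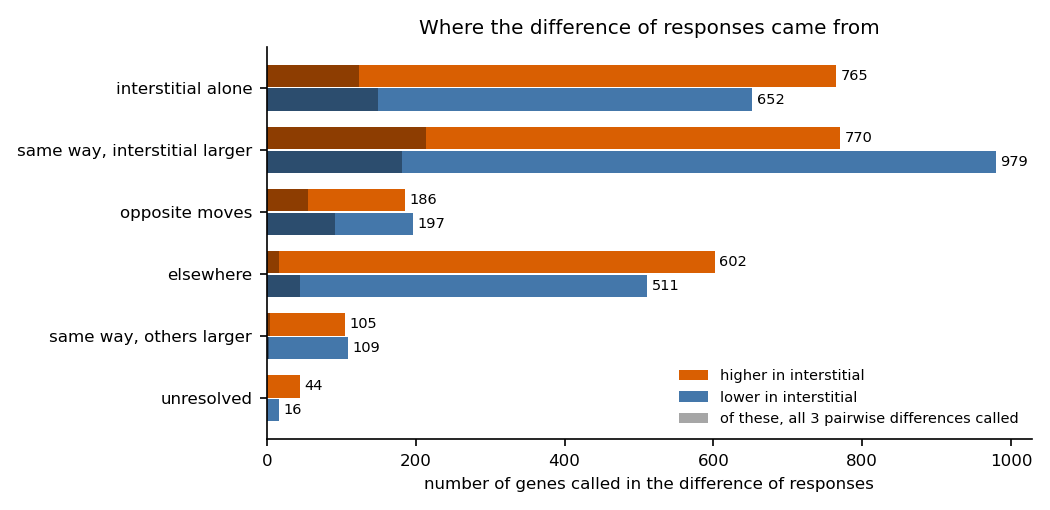
Number of genes called higher (orange) or lower (blue) in the difference of responses, by the terms that passed. The darker part of each bar counts genes whose 3 pairwise differences were all called: 214 of the 770 higher genes that rose more in interstitial arrays, and 17 of the 602 placed elsewhere.

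A stricter group had its own interstitial change in the direction of the difference and differed from each of the 3 lines singly. It held 394 higher and 422 lower genes. Interstitial IRI and sham arrays did not overlap for 387 and 406 of these, which follows largely from choosing genes by that same interstitial response. No share over all genes tested stands beside these counts, so they are not read as further evidence. With kidneys without surgery in place of sham the group held 330 higher and 577 lower genes, 152 and 195 of them shared. Set against wild-type arrays, 152 of the 394 and 177 of the 422 also differed from the wild-type response in the same direction. That comparison uses the same interstitial arrays, and over all genes tested it called 6.92% higher and 12.7% lower. The text below follows the 12 highest and 12 lowest of this group, then the genes whose difference came from elsewhere.

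Promoters are shown for leading genes of both directions, chosen by the rank of their difference. They are the 3 highest and the 3 lowest of the group with 1 start site in the RefSeq table (build GRCm38.p6), each as the 250 bases before the start, 5′ to 3′ on the strand of the gene. Capitals mark matches on either strand to TGANTCA (the AP-1 site), TGACGTCA (the cAMP response element), GGAATG (the TEAD site), the CArG box of SRF or TATAAA (the TATA box). Il6 lies at chr5:30012864-30013113 (+), Tnfsf18 at chr1:161494407-161494656 (+) and Ch25h at chr19:34475149-34475398 (-). Among the lower genes, Ifitm1 lies at chr7:140967826-140968075 (+), Rasgef1b at chr5:99252928-99253177 (-) and Abca8a at chr11:110095938-110096187 (-). The windows of Ifitm1 and Abca8a lie inside the spans of these genes (140967429 to 140969827 and 110025634 to 110097580). They precede the listed start site but not the outer end of the gene.
Il6: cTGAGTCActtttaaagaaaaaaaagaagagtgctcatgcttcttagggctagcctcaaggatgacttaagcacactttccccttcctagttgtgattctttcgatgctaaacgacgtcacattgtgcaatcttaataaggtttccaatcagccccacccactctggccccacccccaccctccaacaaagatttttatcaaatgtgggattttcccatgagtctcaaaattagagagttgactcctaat
Tnfsf18: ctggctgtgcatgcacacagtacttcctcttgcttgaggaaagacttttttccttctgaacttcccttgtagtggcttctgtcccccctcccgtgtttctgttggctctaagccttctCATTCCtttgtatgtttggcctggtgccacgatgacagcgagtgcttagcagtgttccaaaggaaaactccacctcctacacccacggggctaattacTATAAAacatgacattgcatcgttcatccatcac
Ch25h: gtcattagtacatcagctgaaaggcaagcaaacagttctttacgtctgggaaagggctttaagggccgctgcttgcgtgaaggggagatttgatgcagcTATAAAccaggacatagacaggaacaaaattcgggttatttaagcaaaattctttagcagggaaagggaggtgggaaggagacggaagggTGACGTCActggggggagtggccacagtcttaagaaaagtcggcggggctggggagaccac
Ifitm1: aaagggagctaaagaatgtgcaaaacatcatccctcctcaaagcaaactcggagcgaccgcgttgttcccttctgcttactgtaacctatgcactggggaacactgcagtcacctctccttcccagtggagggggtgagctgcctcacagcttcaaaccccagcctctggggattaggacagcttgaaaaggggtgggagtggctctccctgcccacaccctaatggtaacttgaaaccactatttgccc
Rasgef1b: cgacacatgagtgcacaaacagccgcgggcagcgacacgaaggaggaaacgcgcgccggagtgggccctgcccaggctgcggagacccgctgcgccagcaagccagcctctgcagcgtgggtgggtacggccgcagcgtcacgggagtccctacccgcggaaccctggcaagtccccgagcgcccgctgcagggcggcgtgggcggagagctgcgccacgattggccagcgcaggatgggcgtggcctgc
Abca8a: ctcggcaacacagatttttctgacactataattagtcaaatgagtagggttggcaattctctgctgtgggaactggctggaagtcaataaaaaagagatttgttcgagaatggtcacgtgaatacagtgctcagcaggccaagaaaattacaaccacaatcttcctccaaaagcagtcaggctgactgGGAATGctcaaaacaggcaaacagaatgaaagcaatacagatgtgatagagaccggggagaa
Counted from the start site, the AP-1 match of Il6 lay at -249 to -243, the cAMP response element match of Ch25h at -61 to -54 and the TATA box of Tnfsf18 at -34 to -29. Ch25h also held a TATA match at -151 to -146. TEAD matches lay at -132 to -127 in Tnfsf18 and at -62 to -57 in Abca8a. The windows of Ifitm1 and Rasgef1b held none of these letters. RefSeq listed promoters for 310 of the 394 higher genes and 324 of the 422 lower genes. AP-1 matches were in 7.04% of the 398 promoters of the higher genes and 4.18% of the 431 promoters of the lower genes, against 5.77% of the 18628 promoters of all genes tested. The cAMP response element was in 2.51%, 2.09% and 2.08% of the same sets, the TEAD site in 11.3%, 13.9% and 11.4%, the CArG box in 2.01%, 1.39% and 1.27%, and the TATA box in 6.53%, 8.12% and 9.79%. A match is a string of letters and was not examined as a binding site.

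Secreted signals led the higher genes. Il6, the inflammatory cytokine, had log2 intensities of 10.04, 10.48 and 12.06 in interstitial IRI arrays, against 5.45, 5.44 and 5.46 in interstitial sham arrays. Its IRI arrays reached 6.93 to 8.28 in the endothelial line, 6.25 to 7.04 in the myeloid line and 5.32 to 6.00 in the nephron line. Every interstitial IRI array thus lay above every IRI array of the other lines. The interstitial response was 5.41 ± 0.37 (SE), the mean of the others 1.46, and the difference 3.95 ± 0.43 (limma, adjusted p = 1.96e-06). Wild-type arrays rose as well, by 2.83, and the interstitial response exceeded that by 2.58 (adjusted p = 0.024).

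Cxcl5, a chemokine that draws neutrophils, was called in the interstitial line and in none of the other 3: it had 8.34, 8.99 and 10.63 in interstitial IRI arrays and 5.53 to 5.60 in interstitial sham arrays. In the other lines it stayed between 5.65 and 6.45 after IRI and between 5.39 and 5.70 after sham. The difference was 3.37 ± 0.38 (adjusted p = 3.43e-06). The mean response elsewhere (0.38, adjusted p = 0.1) and the wild-type response (0.54, adjusted p = 0.24) were not called.

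Tnfsf18, the ligand of the T cell receptor GITR, was likewise called in the interstitial line and in none of the other 3. It had 8.44, 8.95 and 10.57 in interstitial IRI arrays, against 5.48, 5.33 and 5.38 in interstitial sham arrays, and 5.26 to 5.83 in IRI arrays of the other lines. Its difference was 3.71 ± 0.35 (adjusted p = 4.92e-07), and it exceeded the wild-type response by 3.08 (adjusted p = 3.3e-05).

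Il11, a cytokine of the IL-6 family linked to fibrosis, rose in interstitial arrays to 9.53, 10.00 and 11.03, against 6.06, 6.34 and 6.65 after sham. Smaller rises were called in the nephron (0.98) and myeloid (1.04) lines, and none in the endothelial line (0.30). The difference was 3.07 ± 0.38 (adjusted p = 1.02e-05). Cxcl1, another neutrophil chemokine, rose in all 4 lines, by 3.83 in interstitial, 1.44 in nephron, 2.13 in endothelial and 0.70 in myeloid arrays, with a difference of 2.41 ± 0.26. Ccl7, a monocyte chemokine, rose by 2.29 in interstitial arrays, while its levels in myeloid arrays were 8.79, 9.20 and 9.29 after IRI, against 9.18, 8.86 and 9.67 after sham. Its interstitial IRI arrays (8.44, 8.95 and 10.63) reached the level that myeloid arrays held with or without injury.

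Over the list of 31 cytokine and chemokine genes, 11 were higher and 4 lower in the difference, against 12.9% and 12.8% of all genes. The median difference of the list was 0.41. Among the higher members, 9 had their own interstitial rise, against 1721 of the 2472 higher genes among all tested. Ccl12, another higher member, was higher only through a fall elsewhere, described further on. Ccl2, the classic monocyte attractant, rose by 2.32 in interstitial arrays but by 3.09 in endothelial arrays, and its difference did not pass (0.73 ± 0.31, adjusted p = 0.094). Neutrophil transcripts moved with these genes: the summed intensity of S100a8, S100a9 and Ly6g was 1096 to 1496 in interstitial IRI arrays, against 216 to 256 in interstitial sham arrays. The same sum was 9649 to 13251 in myeloid IRI arrays, against 1565 to 2506 after sham, and its part in the chemokine result was not tested.

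**Figure D3:**
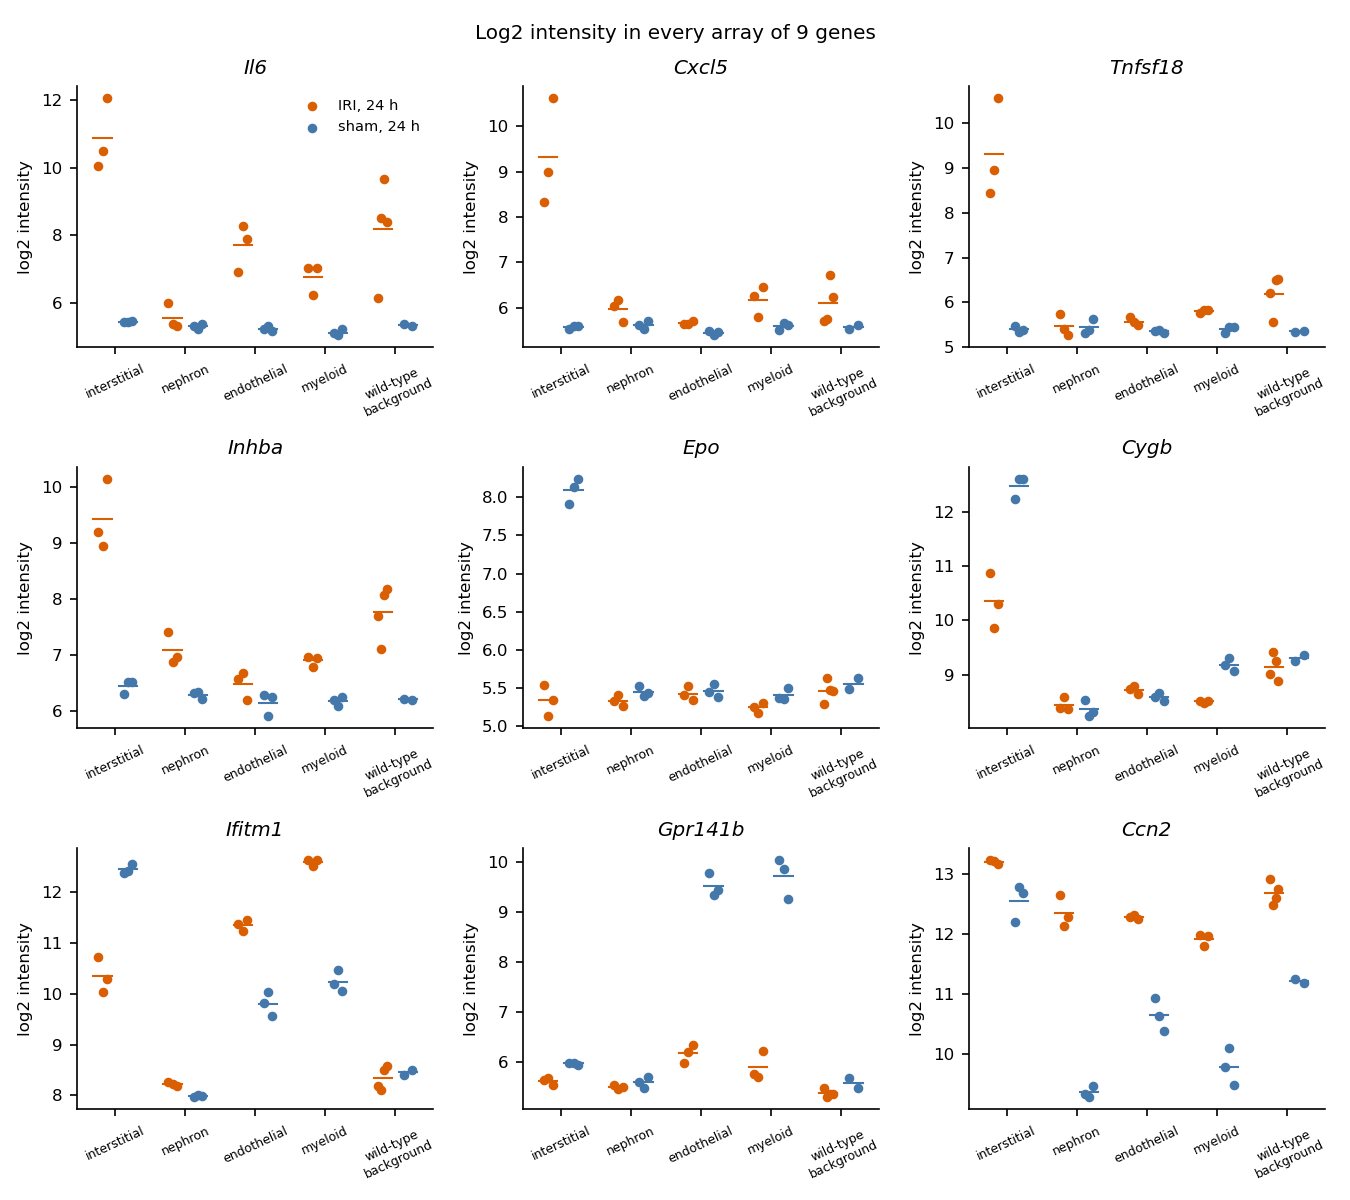
Log2 intensity of 9 genes in every IRI array (orange, left of each pair) and sham array (blue) of the 4 lines and the wild-type background. Points are arrays and bars are group means: Cxcl5 and Tnfsf18 stand out in interstitial IRI arrays alone, Epo in interstitial sham arrays alone, and Gpr141b is high in endothelial and myeloid sham arrays.

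Of the 34 measured genes of the TGF-beta, activin and BMP list, 10 were higher and 11 lower, against 12.9% and 12.8% of all genes, and the median difference was -0.07. Inhba, which encodes the subunit of activin A, had 9.20, 8.96 and 10.15 in interstitial IRI arrays, against 6.31, 6.53 and 6.53 in sham arrays. IRI arrays of the other lines lay between 6.21 and 7.42, below all 3. The difference was 2.36 ± 0.24 (adjusted p = 1.06e-06), and the interstitial response exceeded the wild-type response by 1.43 (adjusted p = 0.0047). The secreted activin antagonists rose too: Fstl3 with a difference of 1.67 ± 0.14 (adjusted p = 7.56e-08) and Fst, follistatin, with 1.12 ± 0.31 (adjusted p = 0.0118). The call of Fst was lost without the third interstitial IRI array (0.79, adjusted p = 0.0554) and with kidneys without surgery as control (0.77, adjusted p = 0.135). Tgfbr1, a receptor kinase of TGF-beta, rose by 1.24 in interstitial and by 1.30 in nephron arrays while it fell by 0.75 in endothelial arrays, so that its difference (1.14 ± 0.16) did not separate interstitial from nephron cells. Tgfb1 itself rose by 0.86 in interstitial arrays and by 1.60 in nephron arrays. Its difference of 0.52 was called higher (limma). The call was lost without the endothelial line (0.17, adjusted p = 0.3) and without the myeloid line (0.24, adjusted p = 0.179). It was also lost with kidneys without surgery as control (0.34, adjusted p = 0.105).

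Pi15, a secreted peptidase inhibitor of the CAP family, had 11.32, 11.70 and 12.23 in interstitial IRI arrays, against 6.79, 6.61 and 6.38 in sham arrays. It was called in all 4 lines, by 2.32 in myeloid and under 1 in nephron (0.75) and endothelial (0.89) arrays, and the difference was 3.84 ± 0.21 (adjusted p = 2.88e-10). Adam19, a membrane metalloprotease, rose by 2.72 in interstitial arrays and fell by 0.51 in endothelial arrays. Itga5, the fibronectin receptor subunit, rose by 3.73, against 2.20 in nephron, 0.08 in endothelial and 1.51 in myeloid arrays.

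For 2 of the 12 the test of the interstitial against the wild-type response did not pass. Ch25h, which makes 25-hydroxycholesterol, rose by 3.03 in interstitial arrays and by 3.47 in wild-type arrays (difference -0.44, adjusted p = 0.46). In myeloid arrays it fell by 1.55, so part of its difference of 2.99 ± 0.30 came from an opposite move. Medag rose by 3.34 in interstitial and by 2.79 in wild-type arrays (difference 0.55, adjusted p = 0.18). The other 10 exceeded the wild-type response at an adjusted p under 0.05. The third interstitial IRI array was the highest of its group for 10 of these 12 genes. Without it the differences of Il6, Tnfsf18, Cxcl5 and Ccl7 were 3.35, 3.09, 2.71 and 1.74, each still called.

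**Figure D4:**
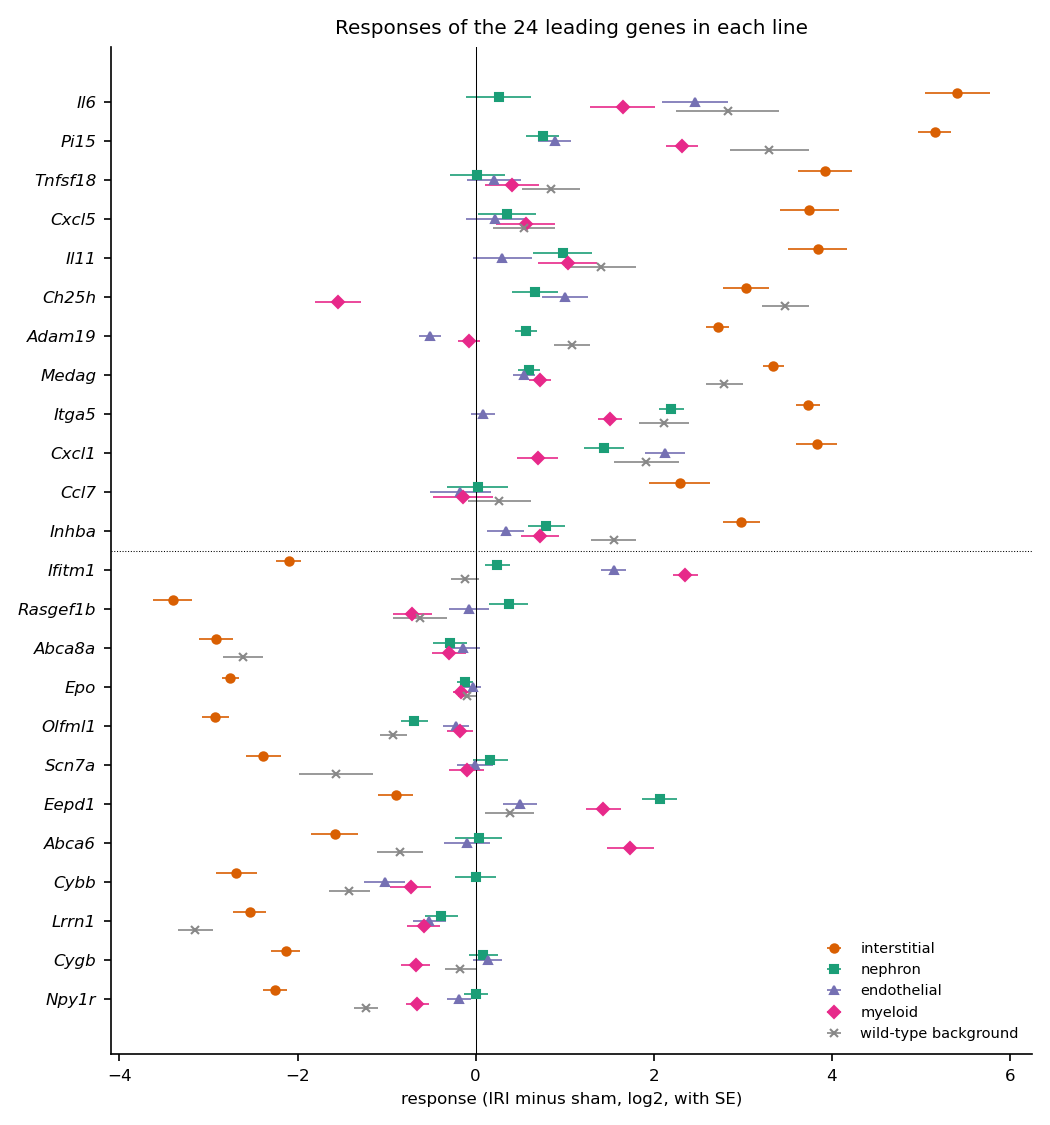
Response (IRI minus sham, log2, with SE) of the 12 highest genes (above the dotted line) and the 12 lowest (below it) in the 4 lines and the wild-type background. Interstitial responses (orange circles) stand apart from the other 3 lines because the genes were chosen for that. Wild-type responses (grey crosses), not used in the choice, lie beside the interstitial ones for Ch25h and Lrrn1 and near 0 for Epo and Cygb.

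Erythropoietin message had the smallest adjusted p of the 12 lowest genes. Epo, the hormone that drives red cell production, had 5.54, 5.13 and 5.35 in interstitial IRI arrays, against 7.91, 8.14 and 8.24 in interstitial sham arrays. In the other 3 lines it lay between 5.18 and 5.55 in every array, and the interstitial IRI arrays, from 5.13 to 5.54, lay at that level. The interstitial response was -2.75 ± 0.09 and the difference -2.65 ± 0.11 (adjusted p = 6.81e-12). The wild-type response was -0.09 (adjusted p = 0.53). Fewer Epo-producing cells and less RNA per cell cannot be told apart in these bulk samples. In interstitial kidneys without surgery Epo was at 7.88, 6.03 and 7.88, and with these as control the difference was -1.88.

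Cygb, cytoglobin, a globin of fibroblasts and stellate cells, had 10.87, 9.87 and 10.31 in interstitial IRI arrays, against 12.23, 12.60 and 12.61 in sham arrays. Its difference was -1.98 ± 0.19 (adjusted p = 4.71e-07), with no call in the mean of the others or in wild-type arrays (-0.17) and a smaller fall of 0.67 in myeloid arrays. Npy1r, a receptor of the sympathetic transmitter neuropeptide Y, fell by 2.25 in interstitial arrays and by 0.65 in myeloid arrays (difference -1.97 ± 0.15). Rasgef1b, an exchange factor for Ras family proteins, fell to 8.28, 7.36 and 7.45, against 10.99, 11.10 and 11.21 after sham, with a difference of -3.27 ± 0.26 (adjusted p = 5.72e-08). Edn3, the vasoactive peptide endothelin 3, fell by 2.09 in interstitial arrays and by 1.37 in myeloid arrays (difference -1.41 ± 0.11). Pde5a, which breaks down cGMP, fell by 1.55 in interstitial and by 0.50 in endothelial arrays but rose by 0.83 in nephron arrays. Of 32 vasoactive and endocrine genes, 10 were lower and 6 higher in the difference, against 12.8% and 12.9% of all genes. The higher ones included Ptgs2, the inducible cyclooxygenase, which rose by 3.74 in interstitial arrays and by 1.84 to 2.48 elsewhere.

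For 4 of the 12 lowest genes the test of the fall against that in wild-type arrays did not pass. Abca8a, a lipid transporter, had 7.14, 6.81 and 7.26 in interstitial IRI arrays, against 9.42, 10.19 and 10.36 after sham. It fell by 2.92 there and by 2.61 in wild-type arrays (difference -0.31, adjusted p = 0.56). The same held for Scn7a, a sodium channel relative (-2.38 in interstitial, -1.57 in wild-type arrays), and Lrrn1 (-2.54 and -3.15). The fourth was Abca6, a relative of Abca8a (-1.58 and -0.85). Olfml1 and Cybb, the catalytic subunit of the phagocyte NADPH oxidase, fell by 2.92 and 2.69 and exceeded the wild-type fall. Cybb also fell in endothelial (1.02) and myeloid (0.73) arrays. The 4 myeloid markers in interstitial arrays summed to 1429 to 2274 after IRI, against 2616 to 3065 after sham. Their part in the fall of Cybb was not tested. The second interstitial IRI array was the lowest of its group for 10 of the 12 lowest genes. Without it the differences of all 12 were still called.

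Of 35 markers of fibroblasts and pericytes, 17 were lower and 0 higher in the difference, against 12.8% and 12.9% of all genes, with a median of -0.47. Their own interstitial response fell for 21 and rose for 1, against 24.2% and 24.3% of all genes. Of the 17 lower markers, 15 had their own fall, against 1828 of the 2464 lower genes among all tested. Lum, the matrix proteoglycan lumican, fell by 1.29 and Fbln1, fibulin 1, by 1.30, both with no called change in any other line. Wild-type arrays fell by 1.40 for Fbln1 and by 0.29 for Lum (not called). The test of the interstitial against the wild-type response passed for neither (limma, adjusted p = 0.895 and 0.0547). Cxcl12, the stromal chemokine, fell by 1.98 in interstitial arrays but also by 1.41 in nephron arrays. The markers did not move as one: Pdgfra (-0.57 ± 0.28, adjusted p = 0.152), Pdgfrb (-0.05 ± 0.26) and Penk (-0.02 ± 0.29) did not pass in the difference, and their own responses of -0.01, 0.22 and 0.09 were not called. The summed level of the 10 defining markers was 16182 to 22659 after IRI, against 22064 to 27231 after sham, and 1 IRI array lay above the lowest sham array. Of 17 mesangial, juxtaglomerular and smooth muscle genes, 5 were lower and 2 higher, against the same 12.8% and 12.9% of all genes. Cnn1, smooth muscle calponin, fell by 0.95 and Itga8, a mesangial integrin, by 1.67. Itga8 also fell in endothelial (1.04) and myeloid (1.28) arrays, and its difference did not pass without the nephron line (-0.51, adjusted p = 0.0757). Npnt, nephronectin, was higher (1.20 ± 0.19) through falls in the other 3 lines.

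Collagens and myofibroblast genes did not lead the difference at 24 h. Col1a2 fell by 0.74 and Col1a1 by 0.42 in interstitial arrays, with differences of -0.71 ± 0.13 (adjusted p = 0.000528) and -0.43 ± 0.15 (adjusted p = 0.0393). The call of Col1a1 was lost under many alternatives, among them without the third interstitial IRI array (-0.28, adjusted p = 0.165), without the second interstitial sham array (-0.33, adjusted p = 0.145) and without the nephron (-0.36) or endothelial (-0.37) line. Wild-type arrays fell by 1.43 and 1.28. Acta2, smooth muscle actin, Postn, periostin, and Tnc, tenascin C, did not pass (0.10 ± 0.25, 0.16 ± 0.25 and 0.23 ± 0.43), and Tnc rose in all lines, by 2.78 to 3.11. Col8a1, a short-chain collagen of vessel walls, rose by 1.95 (difference 1.70 ± 0.12, adjusted p = 1.49e-08), and Col5a2, a fibrillar collagen, by 0.71 (0.62 ± 0.11, adjusted p = 0.000322). Over 19 collagens, 2 were higher and 3 lower, near the 12.9% and 12.8% of all genes.

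Has1, a hyaluronan synthase, rose by 1.66 in interstitial arrays and in no other line (difference 1.65 ± 0.28, adjusted p = 0.000273). Among proteases and inhibitors, 7 of 32 were higher and 6 lower, against 12.9% and 12.8% of all genes: Mmp3, stromelysin (1.81 ± 0.33), Timp1, the metalloprotease inhibitor (1.56 ± 0.17), and Adamts4 (1.42 ± 0.31) were higher, each with a rise in all 4 lines. Adamts5, an aggrecan-cleaving protease, fell by 0.56 in interstitial arrays and rose by 0.58 to 1.18 in the other lines (difference -1.48 ± 0.17). Aspn, asporin, fell by 2.11 (difference -1.77 ± 0.34).

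Of 27 genes of the Wnt pathway, 9 were lower and 4 higher in the difference, against 12.8% and 12.9% of all genes. All of these 9 and 4 had their own interstitial change, against 1828 of 2464 lower and 1721 of 2472 higher genes among all tested. The secreted antagonist Sfrp4 had a difference of -1.63 ± 0.18 (adjusted p = 3.42e-06) and Dkk3, another, of -1.37 ± 0.14 (adjusted p = 9.39e-07), and the Wnt agonist Rspo1 one of -0.98 ± 0.14. None of the 3 was called in the mean of the others. Frzb, another secreted antagonist, rose by 1.73, but its difference of 1.30 ± 0.22 rested on a nephron fall of 1.21: in myeloid arrays it rose by 1.52. Without the nephron line the difference of Frzb did not pass (0.48, adjusted p = 0.122).

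Of 34 growth factors and receptors, 10 were higher and 4 lower, against 12.9% and 12.8% of all genes. Fgf2, basic fibroblast growth factor (1.35 ± 0.13, adjusted p = 5.58e-07), and Fgf7, a fibroblast factor for epithelia (0.95 ± 0.20, adjusted p = 0.00176), had their own rise. Igfbp5, an IGF-binding protein, was higher only because it fell less: by 1.00 in interstitial arrays and by 1.76 to 2.35 elsewhere. Among 20 immediate early genes 7 were higher and 2 lower, against the same shares of all genes. Egr2 rose by 2.97, with 0.65 to 1.14 in the other lines (difference 2.07 ± 0.17). Myc rose by 2.82 in interstitial and by 2.70 in nephron arrays and fell by 0.48 in myeloid arrays, so it did not separate interstitial from nephron cells (0.13, adjusted p = 0.7).

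The test against the wild-type response passed for some of these list genes and not for others. The interstitial response differed from the wild-type response in the same direction for Fstl3 (1.12), Edn3 (-1.75), Has1 (1.38), Sfrp4 (-1.01), Rspo1 (-0.93), Fgf7 (0.87), Egr2 (0.85) and Cnn1 (-0.98). The test did not pass for Ptgs2 (0.51), Pde5a (-0.67), Timp1 (1.34, adjusted p = 0.11), Mmp3 (0.47), Adamts4 (0.56), Adamts5 (0.36), Aspn (-0.35) or Dkk3 (-0.43). Nor did it pass for Frzb (0.71), Fgf2 (0.28), Fst (1.05, adjusted p = 0.058), Tgfbr1 (0.00), Cxcl12 (-0.49), Itga8 (0.38) or Col8a1 (0.88, adjusted p = 0.097). That does not show equal responses, since only 2 wild-type sham arrays entered. The 4 wild-type IRI arrays also differed in content: their adipocyte markers summed to 671 to 7363, with a median of 798. The gap of Timp1 was larger than that of Egr2, but so was its SE (0.58 against 0.25). The Cre-free eGFPL10a background did not always move like the wild-type background: its response was 0.11 for Dkk3 (-1.02 in wild-type arrays), -0.01 for Itga8 (-2.05) and 0.51 for Fgf2 (1.55). For other genes it lay near the interstitial response. It was -2.25 for Ifitm1 (interstitial -2.10, wild-type -0.12) and 2.98 for Ch25h (interstitial 3.03, wild-type 3.47). Only the wild-type response was tested against the interstitial one.

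Tubular transcripts were present in interstitial arrays, by the nephron markers. Proximal tubule genes were lower in 6 of 24 and higher in 0, fatty acid oxidation genes lower in 10 of 15 and higher in 0, and tubular injury genes higher in 6 of 19 and lower in 0, against 12.8% lower and 12.9% higher of all genes. With kidneys without surgery as control, the fatty acid oxidation genes Acaa2 (-0.31, adjusted p = 0.101), Acot1 (0.38) and Acot2 (0.43) lost the call, the last 2 with a change of sign. The 5 nephron markers summed to 15798 to 17819 in interstitial IRI arrays, against 28049 to 30965 in interstitial sham arrays. In nephron arrays they summed to 20424 to 21840 after IRI and 25600 to 27724 after sham. Lcn2, neutrophil gelatinase-associated lipocalin of injured tubules, rose by 3.85 in interstitial arrays and by 5.36 in wild-type arrays. Its difference of 1.44 ± 0.22 was 0.24 (adjusted p = 0.818) with kidneys without surgery as control. Krt20, another tubular injury gene, rose by 5.71 in interstitial arrays and by 4.74 to 5.78 in the other lines, and its difference was not called (0.45 ± 0.25, adjusted p = 0.192). The part of tubular RNA in these results was not tested.

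**Figure D5:**
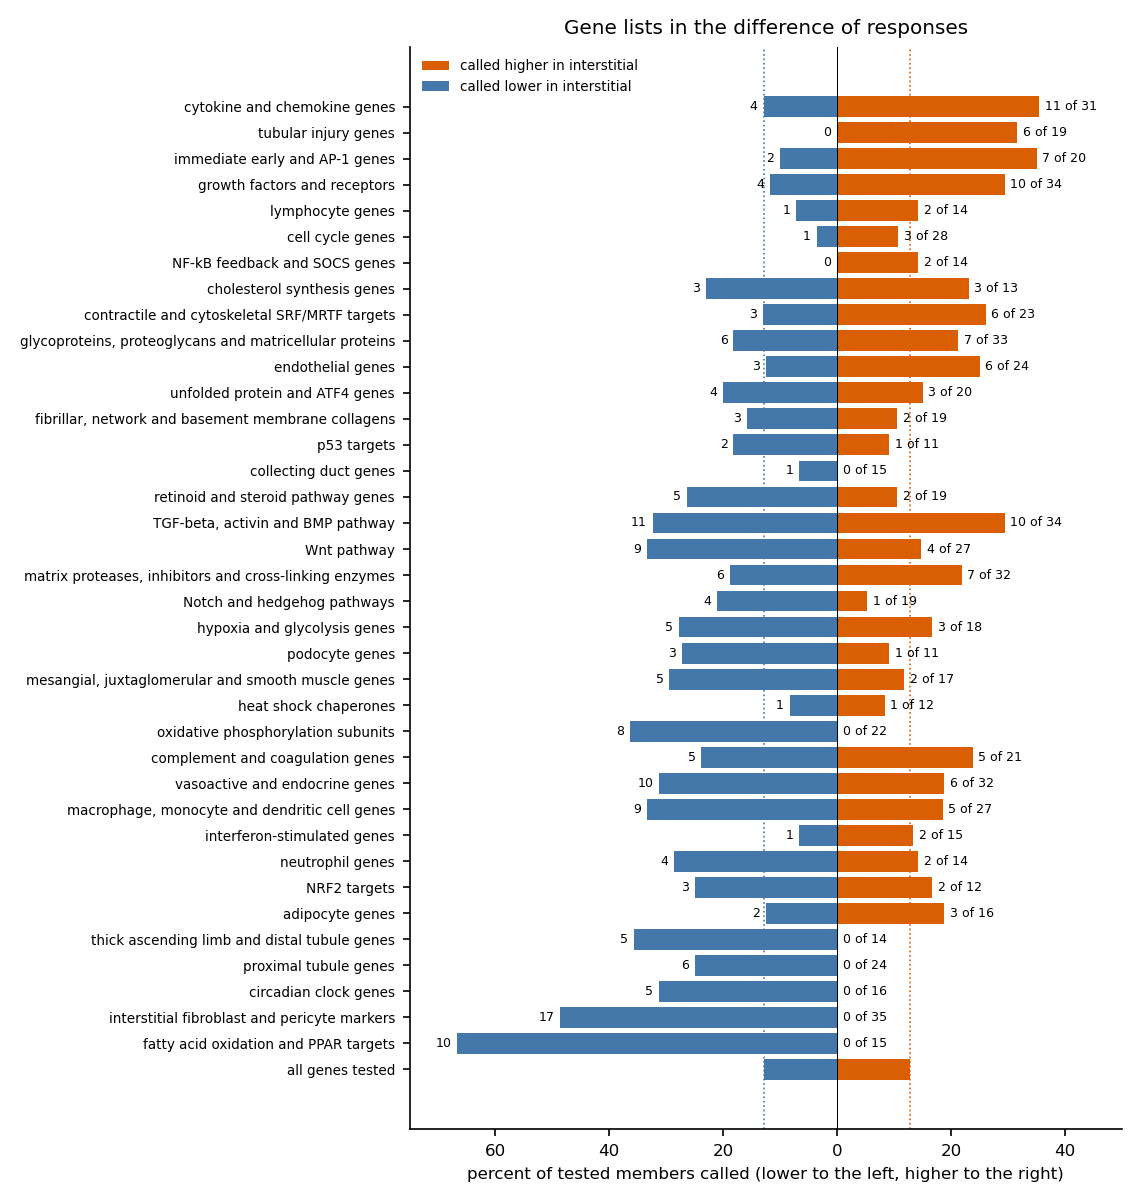
Share of the tested members of each gene list called higher (orange, to the right) or lower (blue, to the left) in the difference of responses, for lists with at least 10 tested members, ordered by median difference. Dotted lines mark all genes (12.9% and 12.8%): cytokine and chemokine genes had 11 of 31 higher, and fibroblast and pericyte markers 17 of 35 lower with 0 higher.

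Opposite moves elsewhere enlarged some of the leading differences. Ifitm1, an interferon-induced membrane protein, had 10.73, 10.04 and 10.29 in interstitial IRI arrays, against 12.39, 12.43 and 12.55 after sham. In myeloid arrays it had 12.64, 12.51 and 12.63 after IRI, against 10.19, 10.48 and 10.05 after sham. The interstitial fall of 2.10 and the rises of 2.35 in myeloid and 1.55 in endothelial arrays made a difference of -3.48 ± 0.16 (adjusted p = 2.9e-11), of which the interstitial term was the larger part. A second probe set of Ifitm1 gave -3.34. The wild-type response of Ifitm1 was -0.12, but that of the Cre-free eGFPL10a background was -2.25, close to the interstitial one. The Cre-free response was not tested against the interstitial one.

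In Eepd1 the other lines carried more than the interstitial term: it fell by 0.90 in interstitial arrays and rose by 2.07 in nephron and 1.44 in myeloid arrays (difference -2.23 ± 0.23). Cdc42ep3, an effector of the small GTPase Cdc42, fell by 1.20 and rose in each other line, by 0.39 to 1.29. Among the higher genes, Tll1, a protease of the tolloid family that processes procollagen, had 8.41, 8.33 and 8.77 in interstitial IRI arrays, against 6.32, 6.41 and 6.65 after sham. In endothelial arrays it had 8.15, 8.13 and 8.26 after IRI, against 9.91, 9.62 and 9.60 after sham. The endothelial fall of 1.53 was the sole opposite move, since myeloid arrays rose by 0.55. Stc1, the hormone stanniocalcin 1, rose by 1.33 in interstitial arrays and fell by 1.09 in myeloid arrays. Otulinl (0.68) and Fam111a (1.02) rose in interstitial arrays and fell in endothelial arrays, by 2.69 and 1.67.

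For the genes placed elsewhere, the interstitial arrays had no called response. Higher genes of this class are defined by a fall in the mean of the other lines, so falls in single lines follow from the definition. Falls were called in endothelial arrays for 520 of 602, in myeloid arrays for 428 and in nephron arrays for 127. Over all genes tested, 25.6%, 19.4% and 19.7% were called lower in these lines. Gpr141b, a G protein-coupled receptor, had 5.64, 5.67 and 5.54 in interstitial IRI arrays, against 5.98, 5.98 and 5.93 after sham. In myeloid arrays it had 5.76, 5.70 and 6.21 after IRI, against 10.05, 9.86 and 9.26 after sham, and in endothelial arrays it fell by 3.36. Its difference of 2.08 ± 0.19 (adjusted p = 2.32e-07) came from those falls. Nephron arrays lay between 5.46 and 5.70 with or without injury, close to the interstitial arrays.

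Ccl12, a monocyte chemokine of the mouse, fell by 3.55 in myeloid and 2.23 in endothelial arrays and changed by -0.04 in interstitial arrays. Bank1, a B cell adaptor, fell by 3.47 and 2.02 in the same lines. Gcsam (difference 1.82), Ifi205 (1.76) and Clec4b1 (1.70) fell in the same 2 lines. An interstitial response of 0.65 that was not called made up 36.89% of the difference of Ifi205. Without the myeloid line the difference of Bank1 did not pass (0.66, adjusted p = 0.0848). Xcr1 and Clec9a, receptors of cross-presenting dendritic cells, fell in interstitial arrays too, by 0.25 and 0.48, but by over 3 in endothelial (3.27 and 3.37) and myeloid (3.58 and 3.30) arrays. The summed level of 4 myeloid markers was 19396 to 21945 in myeloid IRI arrays, against 23868 to 25927 after sham, and 6389 to 10263 in endothelial IRI arrays, against 14788 to 17254 after sham. In interstitial arrays it was 1429 to 2274 after IRI and 2616 to 3065 after sham. The part of myeloid RNA in endothelial arrays in these genes was not tested.

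The lower genes of this class rose in the mean of the other lines by definition. Rises were called in myeloid arrays for 404 of 511, in endothelial arrays for 381 and in nephron arrays for 223. Over all genes tested, 17.2%, 26.9% and 17.6% were called higher in these lines. Ecm1, a matrix protein, was at 12.44, 12.30 and 12.70 in interstitial IRI arrays and 12.46, 12.85 and 12.55 after sham, the highest levels among the 4 lines. It rose by 1.70 in nephron, 0.64 in endothelial and 1.71 in myeloid arrays, and its difference was -1.49 ± 0.21 (adjusted p = 4.12e-05). Trp53inp1, a p53 target, changed by 0.23 in interstitial arrays, with overlapping groups, and rose by 0.60, 1.57 and 2.32 in the nephron, endothelial and myeloid lines. Mirt2, a long noncoding RNA, rose by 3.59 in myeloid arrays and Chil1, a chitinase-like lectin, by 3.31. The difference of Arg2, mitochondrial arginase, was -1.38 ± 0.41 against sham and 0.36 (adjusted p = 0.533) against kidneys without surgery, and it also failed without the myeloid line (-1.11, adjusted p = 0.0782). Acp5 rose in myeloid arrays by 1.77, and without that line its difference of -1.56 did not pass (-1.05, adjusted p = 0.135). Its interstitial response of -0.83 was not called (limma, adjusted p = 0.0916) but made up 52.79% of the difference.

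In a last class interstitial arrays rose, and the mean of the other lines rose more. Ccn2, connective tissue growth factor, had 13.24, 13.22 and 13.17 in interstitial IRI arrays, against 12.20, 12.79 and 12.69 after sham. It had 12.66, 12.13 and 12.28 in nephron IRI arrays, against 9.34, 9.28 and 9.47 after sham. Thus 2 of the 3 interstitial sham arrays lay above every nephron IRI array. The interstitial rise was 0.65 and the difference -1.60 ± 0.19 (adjusted p = 4.7e-06). Pdk4, which limits glucose oxidation, rose by 1.40 in interstitial arrays and by 2.31 to 3.81 elsewhere. Its difference of -1.62 ± 0.30 was -0.52 (adjusted p = 0.231) with kidneys without surgery as control. Ly6g and Clec4e, surface proteins of neutrophils and activated phagocytes, rose by 0.51 and 0.87 in interstitial arrays and by 4.12 and 4.75 in myeloid arrays, while nephron arrays were not called (0.18 and 0.03). Of 27 macrophage, monocyte and dendritic cell genes, 9 were lower and 5 higher in the difference, against 12.8% and 12.9% of all genes. Among the lower ones, the antigen-presenting H2-Ab1 fell by 1.55 and H2-Aa by 1.31 in interstitial arrays, and both rose in nephron arrays, by 0.71 and 0.87. The 4 myeloid markers in interstitial arrays were also lower after IRI (1429 to 2274, against 2616 to 3065 after sham), and their part in this result was not tested.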

How the data were processed

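RNA from TRAP purifications was measured on Affymetrix Mouse Gene 1.0 ST arrays. The authors deposited 1 intensity per probe set and array, made with RMA in Affymetrix Expression Console 1.3.1 per the submitters' processing notes. RMA normally gives log2 values, but the deposited intensities ran from 7.15 to 19571 and were linear, so log2 was taken. The design had assumed log2 values. Of 35556 probe sets, 21789 had 1 gene symbol. Genes above a log2 level of 5 in at least 3 arrays were tested (19192 genes). For the 999 genes that had over 1 of these, the brightest on average stood for the gene.

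The main model was limma 3.58.1 (R 4.3.3) on 24 arrays in 8 groups, 16 residual degrees of freedom, with adjusted p under 0.05 by Benjamini-Hochberg over all genes tested. SE is the moderated standard error. Array medians ran from 105.8 to 128.4 and replicates of a group correlated at 0.985 to 0.997. The procedure was tested on simulated data. Figures were drawn with matplotlib 3.10.9 in Python 3.11.15.

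The members, the lists and the tests were chosen with earlier results of these data known. Genes named in the text were the 12 highest and 12 lowest with their own interstitial change and all 3 pairwise differences called, the 6 highest and 6 lowest placed elsewhere, the 4 highest and 4 lowest of each other class, up to 4 called members of each list, and a panel of known injury and stromal genes. Clone names and numbered predictions were not named. Alternatives covered normalization, filtering, the control, the lines averaged, a replicate block and leaving out each array. Whole-kidney total RNA arrays entered only an alternative fit and a side comparison of the 24 leading genes.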

Additional observations from a re-analysis of the deposited data

Results flagged for a closer look

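The response to IRI differed between interstitial cells and the mean of the other lines for 2472 genes in the higher and 2464 in the lower direction, by the test of the difference itself. Opposite directions gave the differences of Tll1 (2.32), Stc1 (2.08), Otulinl (1.92) and Fam111a (1.78), in which interstitial arrays rose and the mean of the others fell. The reverse held for Ifitm1 (-3.48), Eepd1 (-2.23), Abca6 (-2.14) and Cdc42ep3 (-1.96).

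Whole-kidney total RNA, which entered no test of the difference, showed higher IRI than sham arrays without overlap for all 12 leading higher genes. On the log2 scale, IRI minus sham was 0.92 for Il6, 1.85 for Pi15, 0.96 for Tnfsf18, 0.26 for Cxcl5, 1.20 for Il11 and 2.44 for Ch25h. It was 1.08 for Adam19, 1.03 for Medag, 2.37 for Itga5, 1.24 for Cxcl1, 0.50 for Ccl7 and 0.84 for Inhba. Some of these lay near or under the log2 level of 5 used as a filter. Cxcl5 had 4.17 to 4.48 after IRI and 4.04 to 4.12 after sham, and Il6 had 3.85 to 5.2 and 3.6 to 3.72. Only the leading genes were compared in this way, so no share over all genes stands beside these counts. Of the 12 leading lower genes, 7 were lower without overlap. Eepd1 went the other way (0.72, every IRI array above every sham array), and Epo differed by -0.07 with overlapping arrays.

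In the 4 wild-type IRI arrays, 1 array stood far from the others for Medag (9.79) and for Ccl7 (7.63). Chance flags about 1 in 20 such groups. Marker sums also varied among the 4 wild-type IRI arrays. Adipocyte markers summed to 671 to 7363 (median 798), and mesangial and smooth muscle markers to 2938 to 8043 (median 3259). The part of this spread in the wild-type response was not tested.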

How the results depend on the processing

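Leaving out each of the 24 arrays in turn gave 2064 to 2603 higher and 2124 to 2600 lower genes in the difference, 330 to 450 higher and 342 to 498 lower genes with their own change and all 3 pairwise differences, and 3141 to 3813 genes against wild-type arrays. Replicate numbers did not pair the arrays (correlations of -0.241 to 0.171 with same-numbered arrays). With the replicate block, 2521 genes were higher and 2507 lower, of which 2402 and 2411 were shared with the fit without it. In a fit of 45 arrays that added total RNA, 1498 genes were higher, 1567 lower, 2453 differed from nephron, 3927 from myeloid, 234 and 237 had their own change with all 3 pairwise differences, and 338 lower genes were placed elsewhere. The cause was not tested. Without the nephron line in the mean, 988 higher genes were placed elsewhere. Restricting to the 3778 genes above the wild-type background tested fewer genes by construction. It gave 952 higher and 635 lower, 1370 and 1182 for the interstitial response, and 1342 and 1380 for the others. It also gave 1334, 1875 and 1666 against nephron, endothelial and myeloid arrays, and 2244 against wild-type arrays. There were 172 lower genes with their own change and all 3 pairwise differences, and 167 higher and 128 lower genes placed elsewhere.

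With kidneys without surgery as control, the difference of Arg2 (0.36), Slc7a12 (0.12), Acot1 (0.38) and Acot2 (0.43) turned positive, and the cause was not tested. Of 4072 values for 108 genes over the alternatives, 3992 kept their direction and side of the threshold, 71 lost the call, 5 gained it and 4 turned sign. Array number and the signal that untagged kidneys also carry limit these results.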
